A study of Mus musculus with 10 samples.

Results

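The corticosteroid receptors and a set of their well-known target genes were examined in adult mouse heart muscle cells (cardiomyocytes) with and without a cAMP sensor. They comprised the glucocorticoid receptor gene Nr3c1, the mineralocorticoid receptor gene Nr3c2, and the glucocorticoid-induced genes Fkbp5, Tsc22d3, Zbtb16, Mt1, Mt2, Sgk1, Klf9 and Klf15. The 10 genes were chosen by name from the 38355 genes of the count table, all 10 were found there, and all 10 passed the filter on low counts that left 12629 tested genes. RNA was sequenced from 5 wildtype and 5 Epac1-PLN mice of the FVB/N strain, with 2 males and 3 females in each genotype and no treatment. Epac1-PLN mice carry a transgene for a fluorescence (FRET) sensor made in the heart, whose name joins Epac1, a protein that binds cAMP, to phospholamban. The driving promoter, the number of founder lines, the age of the mice and the hour at which hearts were taken are not stated in the sources used here. Cardiomyocytes came from Langendorff perfusion, in which the excised heart is digested through its coronary vessels.

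Libraries held 10632224 to 20983754 counts. Rapgef3, which encodes Epac1, was at 10.4 to 15.9 CPM (the counts of a gene scaled to a common library total) in wildtype and at 1241 to 1741 CPM in Epac1-PLN libraries, as the genotype labels require. All 9 cardiomyocyte markers were detected. Of the 5 adipocyte markers 0 passed the filter, and Lep had 0 counts in every library. Epac1-PLN replicate 4 was the least like the rest (median Spearman correlation 0.983) and held the highest level of 19.3% of all tested genes. Endothelial markers summed to 877 CPM there against 456 to 725 CPM in the other libraries, and smooth muscle and pericyte markers to 852 CPM against 305 to 759 CPM. Fibroblast markers, at 752 CPM, and erythroid markers, at 19.1 CPM, lay within the other libraries (548 to 877 and 5.40 to 44.7 CPM). Values without it are given for the members' genotype and sex differences that it moved most.

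Glucocorticoid and mineralocorticoid receptors are transcription factors of the nuclear receptor family that wait in the cytosol in complexes with Hsp90 chaperones. On binding a corticosteroid they enter the nucleus and act at glucocorticoid response elements in DNA. In heart muscle cells the enzyme that inactivates glucocorticoids, encoded by Hsd11b2, is known to be scarce, so that the mineralocorticoid receptor can be occupied by glucocorticoids as well. Many of the genes they induce, such as Fkbp5 and Tsc22d3, are used as readouts of hormone exposure and follow its daily rhythm.

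The DNA just before the start of transcription was searched for the elements through which such genes are known to respond. RefSeq windows were at hand for 8 of the 10 genes, 15 windows in all, and the 250 bases before each start were read on both strands. The palindromic glucocorticoid response element, AGAACA and its reverse complement with a gap of 3 bases, was found in 1 of these 15 windows, before a start of Sgk1, and in 3 of 32851 windows of all genes (0.00913%). The half-site AGAACA, which is part of that element, was found in 4 of the 15 windows, of Sgk1 and Tsc22d3, and in 16.1% of all windows. The metal response element core TGCGCNC or TGCACNC, bound by the zinc-sensing factor Mtf1, was found in 4 of the 15 windows, of Mt1, Mt2, Klf15 and Nr3c2, and in 21.4% of all windows. Shown are the window with the full element and those of the neighbouring metallothionein genes (RefSeq, GRCm38.p6, all on the plus strand). Capitals mark AGAACA or TGTTCT in Sgk1 and the metal response core, in either orientation, in Mt1 and Mt2. They lie at chr10:21993640-21993889 for Sgk1, chr8:94178839-94179088 for Mt1 and chr8:94172368-94172617 for Mt2.
Sgk1 upstream: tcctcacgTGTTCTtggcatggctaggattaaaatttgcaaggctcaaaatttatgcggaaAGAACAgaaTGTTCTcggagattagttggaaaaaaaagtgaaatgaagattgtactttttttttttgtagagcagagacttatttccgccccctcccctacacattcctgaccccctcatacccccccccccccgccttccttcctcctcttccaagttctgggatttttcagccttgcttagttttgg
Mt1 upstream: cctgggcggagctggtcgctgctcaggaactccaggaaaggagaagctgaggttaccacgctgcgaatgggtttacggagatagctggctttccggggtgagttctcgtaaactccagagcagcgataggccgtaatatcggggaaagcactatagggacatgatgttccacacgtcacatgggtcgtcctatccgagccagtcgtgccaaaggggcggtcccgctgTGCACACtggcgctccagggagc
Mt2 upstream: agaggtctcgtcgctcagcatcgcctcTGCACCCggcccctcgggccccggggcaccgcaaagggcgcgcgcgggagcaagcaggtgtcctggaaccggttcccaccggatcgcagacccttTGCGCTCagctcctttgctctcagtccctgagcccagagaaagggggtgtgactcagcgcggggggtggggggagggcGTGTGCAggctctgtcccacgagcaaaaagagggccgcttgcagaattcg
The full element of Sgk1, AGAACAGAATGTTCT, began 189 bases before 1 of the 6 starts that RefSeq gives this gene. Within the 250 bases read, Mt1 held 1 metal response core, 23 bases before its start, and Mt2 held 3, at 223, 128 and 50 bases. Bases after each start were not searched, so these counts depend on the starts used and are not totals for the promoters. A match of letters is a description of these windows only.

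Per length of exon, Mt1 was the most abundant of the 10 genes in wildtype cells and Fkbp5 the least. Mt1 stood at 109 ± 16.3 CPM per kb (SD, n = 5) and did not overlap with the next gene, Klf9, at 26.9 ± 4.68 CPM per kb. Klf9, Mt2 (24.7 ± 4.64 CPM per kb) and Klf15 (24.7 ± 4.00 CPM per kb) overlapped from each to the next. Zbtb16, Tsc22d3 and Nr3c1 followed at 15.3 ± 9.82, 15.2 ± 1.55 and 14.9 ± 1.75 CPM per kb, again with overlap between neighbours. The glucocorticoid receptor gene lay above the mineralocorticoid receptor gene in every wildtype library, since Nr3c2 stood at 7.90 ± 1.31 CPM per kb. Sgk1 overlapped with Nr3c2 at 6.002 ± 0.563 CPM per kb, and Fkbp5 was below both at 1.81 ± 0.713 CPM per kb. Exon lengths came from GENCODE M21, in which 4 of the 10 genes had the coordinates of the count table.

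**Figure D1:**
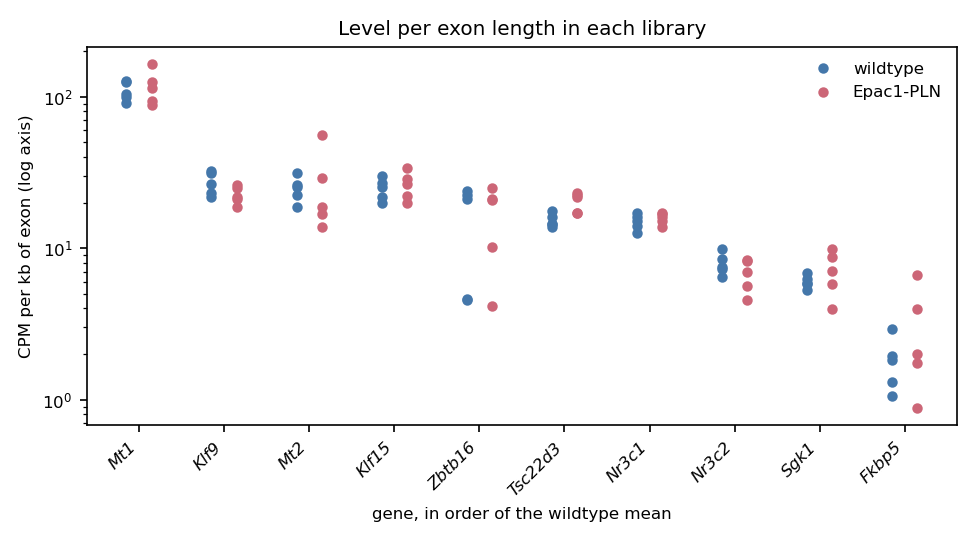
Level of each gene per exon length (CPM per kb, log axis) in each of the 5 wildtype (blue) and 5 Epac1-PLN (red) libraries, in order of the wildtype mean. Mt1 lies highest, at a wildtype mean of 109 CPM per kb, and Fkbp5 lowest, at 1.81 CPM per kb.

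None of the 10 genes passed the test for a difference between genotypes. By edgeR's quasi-likelihood test with sex in the model, 0 of 10 were called at an adjusted p of 0.05, and 1 had an unadjusted p under 0.05. Over all tested genes 0.641% were called and 12.2% had an unadjusted p under 0.05. DESeq2 called 1 of the 10, Tsc22d3, and 2.10% of all tested genes. From limma-voom came calls for 0 of the 10 and 0.594% of all genes, and with sample quality weights for Tsc22d3 and 2.17% of all genes. Of the 10 genes 8 lay higher in Epac1-PLN cells, against 51.0% of all tested genes, with a median log2 fold change of 0.10 against 0.00 over all tested genes. Without Epac1-PLN replicate 4, 5 of 10 lay higher and the median was 0.03. Endothelial markers moved likewise, with 9 of 9 higher in Epac1-PLN cells (median 0.15, 0 called by edgeR) and 3 of 9 without that library, and their part in the members' count was not tested. Groups without overlap were found for 0 of the 10 genes and for 2.75% of all tested genes. In these preparations fewer cells of a type and less RNA per cell cannot be told apart.

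**Figure D2:**
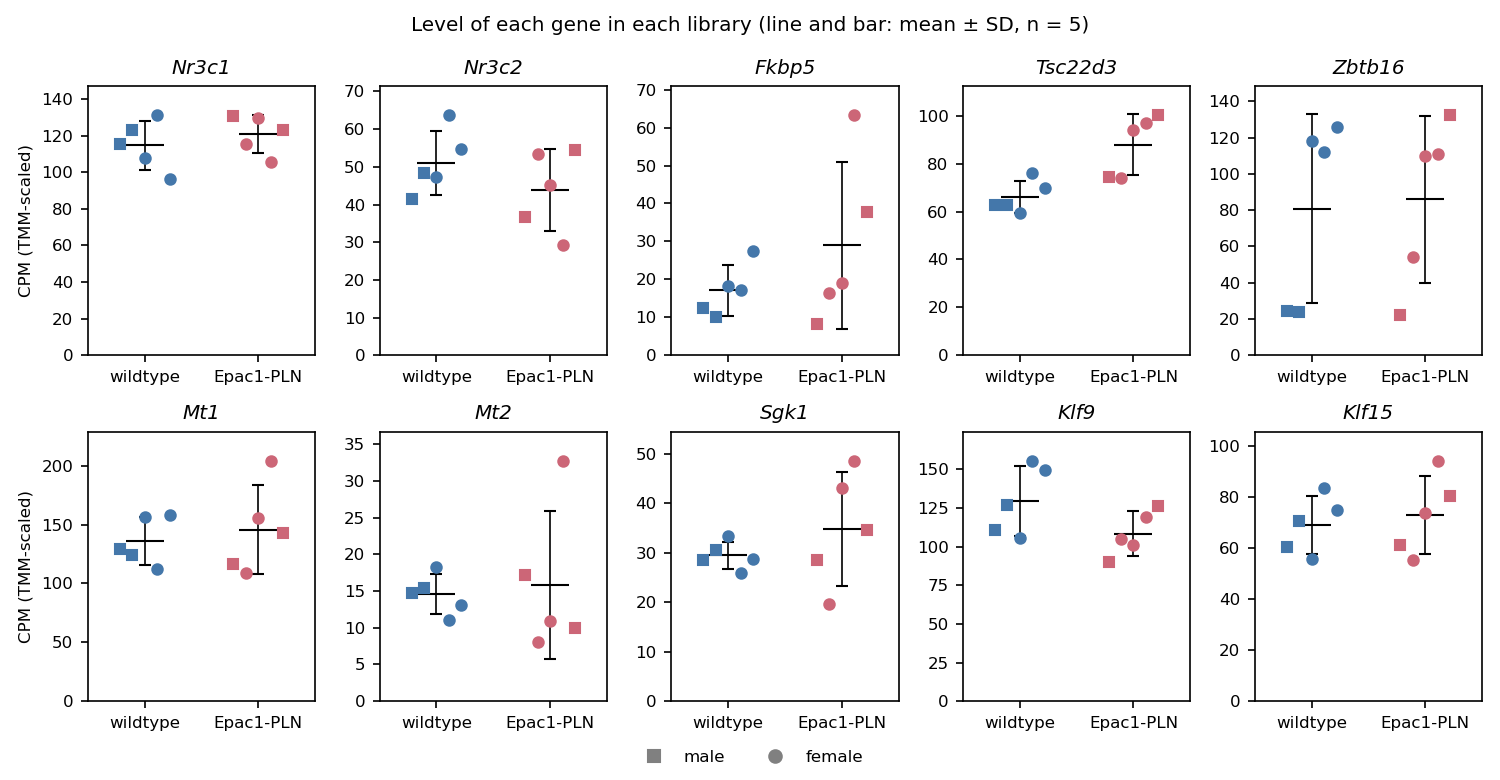
Level of each gene (CPM, scaled by TMM factors) in each library by genotype, with males as squares and females as circles; lines and bars give the mean ± SD of 5 libraries. Tsc22d3 was at 59.4 to 76.1 CPM in wildtype and 74.0 to 100.3 CPM in Epac1-PLN libraries, while Zbtb16 ranged from 22.1 to 132 CPM over all libraries.

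Among the receptor genes, that of the glucocorticoid receptor was the steadiest of the 10 genes, while that of the mineralocorticoid receptor varied more. Nr3c1 (ENSMUSG00000024431, mm10 chromosome 18, 39410545 to 39491301) was at 115, 123, 108, 131 and 96.5 CPM in wildtype replicates 1 to 5. In Epac1-PLN replicates 1 to 5 it was at 131, 116, 129.6, 105 and 123 CPM. The groups overlapped almost completely. Between genotypes the log2 fold change was 0.07 ± 0.09 (SE), with a 95% interval of -0.11 to 0.26 and an adjusted p of 0.809 (edgeR). Its coefficient of variation over the 10 libraries, 10.03%, was close to the median of 10.4% over the 8081 tested genes with a mean of at least 10 CPM.

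Nr3c2 (ENSMUSG00000031618, chromosome 8, 76899442 to 77245012) was at 41.5, 48.3, 47.3, 63.8 and 54.7 CPM in wildtype replicates 1 to 5. The Epac1-PLN libraries held 36.6, 53.3, 45.3, 29.3 and 54.5 CPM. Epac1-PLN replicate 4 was the lowest of all 10 libraries, and the groups overlapped. The log2 fold change was -0.22 ± 0.18 (95% interval -0.60 to 0.17, adjusted p = 0.701, edgeR), and without that library it was -0.08. Its coefficient of variation, 20.9%, was at or above that of 90.5% of the 8081 genes. The gene overlaps the small genes Gm10649, Gm23260 and Gm24838, whose mean counts were far below 395, the lowest count of Nr3c2 in a library.

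Fkbp5 encodes a co-chaperone that lowers the hormone affinity of the glucocorticoid receptor and is itself induced by it, which closes a feedback loop. It (ENSMUSG00000024222, chromosome 17, 28399095 to 28517524) was at 12.4, 10.003, 18.4, 17.3 and 27.5 CPM in wildtype replicates 1 to 5. In Epac1-PLN replicates 1 to 5 it was at 8.35, 16.5, 19.0, 63.4 and 37.6 CPM, from 90 to 950 counts over all libraries. Epac1-PLN replicates 4 and 5 lay above every wildtype library, and replicate 1 below every one. The highest library was 7.59 times the lowest, and the coefficient of variation, 71.9%, was at or above that of 99.8% of the 8081 genes. The log2 fold change was 0.80 ± 0.50 with a 95% interval of -0.36 to 1.96 (adjusted p = 0.597, edgeR). Without Epac1-PLN replicate 4 it was 0.34, and without replicate 5 it was 0.39.

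Tsc22d3, which encodes the anti-inflammatory leucine zipper protein GILZ, came closest to a genotype call. It (ENSMUSG00000031431, chromosome X, 140539528 to 140600659) was at 62.6, 62.9, 59.4, 76.1 and 69.8 CPM in wildtype replicates 1 to 5. The Epac1-PLN libraries held 74.6, 74.0, 94.1, 96.8 and 100.3 CPM. Of the Epac1-PLN libraries 3 lay above every wildtype library, and of the wildtype libraries 4 lay below every Epac1-PLN library, so only wildtype replicate 4 overlapped. The means were 66.2 ± 6.73 and 87.9 ± 12.7 CPM, and the log2 fold change was 0.41 ± 0.10 with an interval of 0.19 to 0.63. The unadjusted p of 0.00148 ranked 186 among 12629 genes, and the adjusted p was 0.101 (edgeR). It was 0.0219 by DESeq2, 0.0260 by limma-voom with quality weights and 0.0412 (edgeR) without Epac1-PLN replicate 2. Over 21 alternatives it ranged from 6.63e-04 (edgeR with no count filter) to 0.618 (edgeR in females alone). The log2 fold change itself was between 0.33 and 0.48 in these alternatives. Leukocytes also express this gene. Macrophage and leukocyte markers summed to 21.6 to 40.2 CPM in wildtype and 27.8 to 58.7 CPM in Epac1-PLN libraries, with 9 of 10 higher (6 without Epac1-PLN replicate 4) and 0 called or at an unadjusted p under 0.05 (edgeR). Their highest sums were 56.2 and 58.7 CPM, in Epac1-PLN replicates 4 and 5, and their part in the Tsc22d3 difference was not tested.

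Zbtb16 encodes a zinc finger transcription factor known as PLZF that is among the strongest glucocorticoid-induced genes in several tissues. It (ENSMUSG00000066687, chromosome 9, 48654311 to 48835945) was at 24.5, 24.0, 118, 112 and 126 CPM in wildtype replicates 1 to 5. In Epac1-PLN replicates 1 to 5 it was at 22.1, 54.0, 110.0, 110.9 and 132 CPM. The libraries thus fell into separate ranges, with wildtype replicates 1 and 2 and Epac1-PLN replicate 1 low, Epac1-PLN replicate 2 between, and the other 6 libraries at 110.0 CPM or more. Counts ran from 238 to 2165, far above counting error. The low libraries were all from males, but the fourth male, Epac1-PLN replicate 5, had the highest level of all. The coefficient of variation of 55.5% was at or above that of 99.6% of the 8081 genes. Between genotypes the log2 fold change was 0.40 ± 0.58 (interval -0.95 to 1.74, adjusted p = 0.867, edgeR), and it turned to -0.31 without Epac1-PLN replicate 5 and to -0.37 in females alone.

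**Figure D3:**
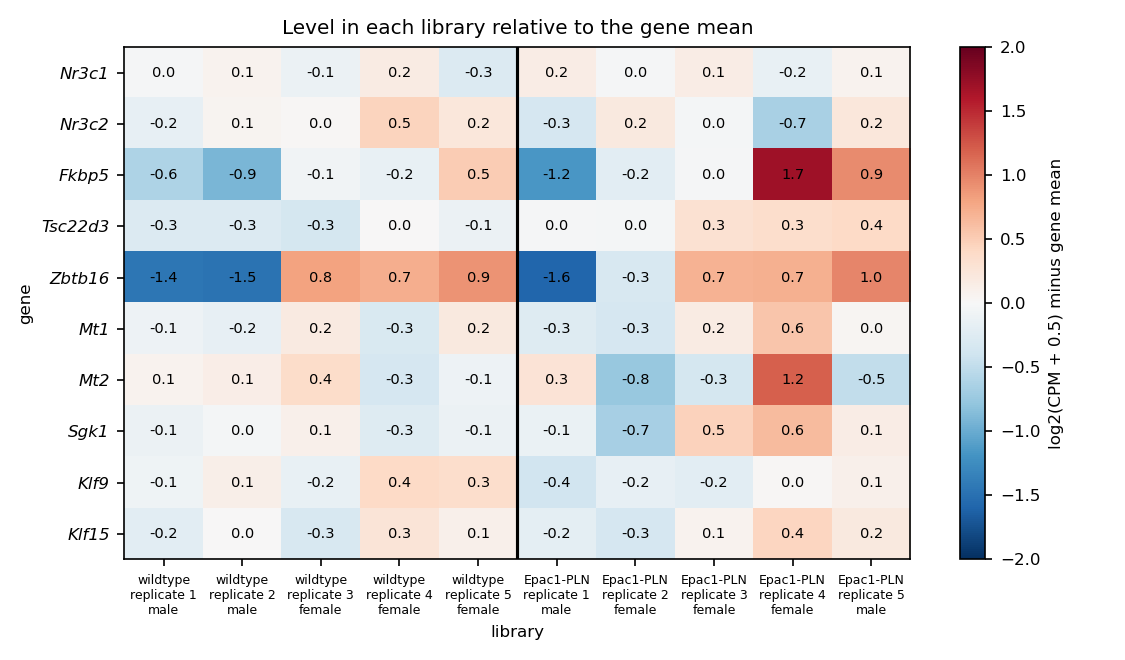
Level of each gene in each library relative to its own mean, as log2(CPM + 0.5) minus the mean over the 10 libraries; red is higher and blue lower, and a line divides wildtype from Epac1-PLN. Zbtb16 is low in wildtype replicates 1 and 2 and Epac1-PLN replicate 1, and Fkbp5, Mt1, Mt2, Sgk1 and Klf15 are highest in Epac1-PLN replicate 4.

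The Krüppel-like factors Klf9 and Klf15 are glucocorticoid-induced transcription factors, and Klf15 is known in the heart for its part in the use of amino acids and fats and in the daily rhythm of repolarization. Klf9 (ENSMUSG00000033863, chromosome 19, 23141226 to 23166911) was at 111, 127, 105, 156 and 149.8 CPM in wildtype replicates 1 to 5. In Epac1-PLN replicates 1 to 5 it was at 90.2, 105, 101, 119.5 and 126 CPM. The lowest libraries were Epac1-PLN and the highest were wildtype, with overlap between. Its log2 fold change of -0.26 ± 0.12 had a 95% interval of -0.52 to 0.01 and an adjusted p of 0.432 (edgeR). It lay between -0.35 and -0.19 in all 21 alternatives, and Klf9 was called in 0 of them.

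Klf15 (ENSMUSG00000030087, chromosome 6, 90462576 to 90475238) was at 60.5, 70.5, 55.7, 83.6 and 74.8 CPM in wildtype replicates 1 to 5. Its Epac1-PLN values were 61.3, 55.2, 73.7, 94.2 and 80.2 CPM in the same order. The groups overlapped, and Epac1-PLN replicate 4 was the highest. A log2 fold change of 0.08 ± 0.15 was found (interval -0.25 to 0.41, adjusted p = 0.903, edgeR), and without that library it was -0.03. Neither factor was called for genotype, with an unadjusted p of 0.0597 for Klf9 and 0.598 for Klf15 (edgeR).

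Sgk1 encodes a kinase that raises the activity of sodium transporters and ion channels and is induced through both receptors. It (ENSMUSG00000019970, chromosome 10, 21882184 to 21999903) was at 28.6, 30.5, 33.4, 25.9 and 28.7 CPM in wildtype replicates 1 to 5. In Epac1-PLN replicates 1 to 5 it was at 28.6, 19.5, 43.1, 48.5 and 34.6 CPM. Of the Epac1-PLN libraries 3 lay above every wildtype library and replicate 2 below every one. The coefficient of variation was 33.0% among Epac1-PLN and 9.38% among wildtype libraries, a difference that was not tested. Its log2 fold change was 0.24 ± 0.21 (interval -0.23 to 0.71, adjusted p = 0.722, edgeR), and 0.10 without Epac1-PLN replicate 4.

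The metallothioneins Mt1 and Mt2 bind zinc and copper and respond to metals through Mtf1 as well as to glucocorticoids. They lie side by side on chromosome 8, Mt2 (ENSMUSG00000031762) at 94172618 to 94173567 and Mt1 (ENSMUSG00000031765) at 94179089 to 94180325. Their transcripts share no run of identical bases longer than 20. Mt1 was at 129, 124, 156, 112 and 158 CPM in wildtype replicates 1 to 5, and at 116, 109, 156, 204 and 143 CPM in Epac1-PLN replicates 1 to 5. The groups overlapped, with Epac1-PLN replicate 4 the highest and replicate 2 the lowest library. Its log2 fold change was 0.10 ± 0.16 (adjusted p = 0.884, edgeR), and without Epac1-PLN replicate 4 it turned to -0.041.

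Mt2 was at 14.8, 15.5, 18.3, 11.01 and 13.1 CPM in wildtype and at 17.2, 8.13, 10.985, 32.7 and 9.91 CPM in Epac1-PLN replicates 1 to 5. The same Epac1-PLN libraries were highest and lowest as for Mt1. Epac1-PLN replicate 4 was 1.79 times the next library. Its log2 fold change of 0.11 ± 0.37 (interval -0.74 to 0.96, adjusted p = 0.958, edgeR) turned to -0.38 without it. The coefficient of variation of Mt2, 46.1%, was at or above that of 99.4% of the 8081 genes, and that of Mt1, 20.7%, at or above that of 90.2%.

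**Figure D4:**
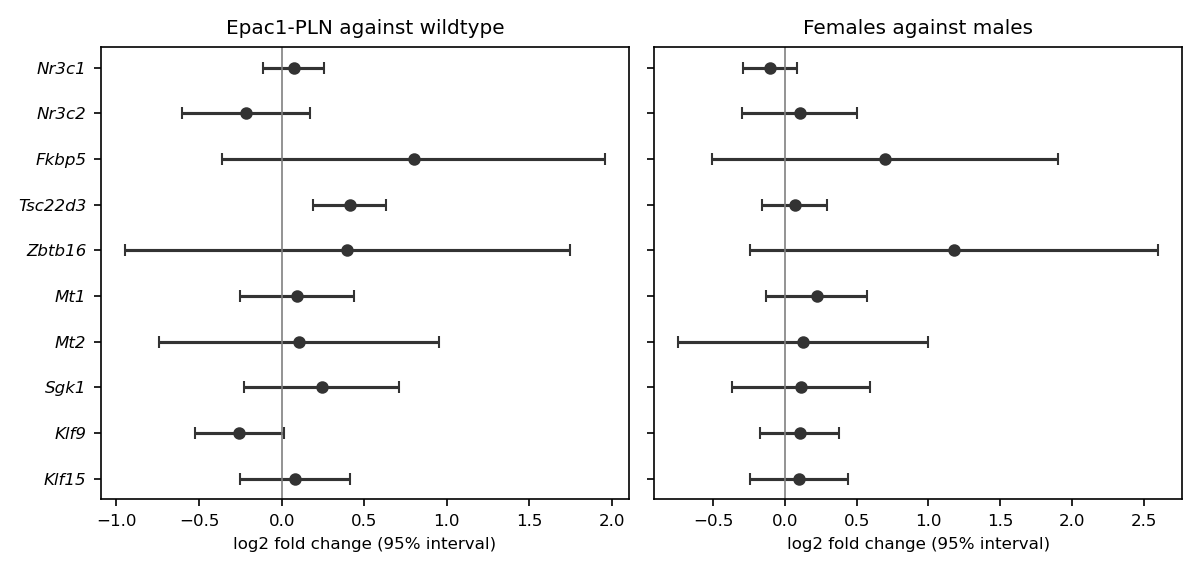
Log2 fold change of each gene with its 95% interval (edgeR, moderated standard error), for Epac1-PLN against wildtype at left and for females against males at right. The interval of Tsc22d3 at left, 0.19 to 0.63, is the only one of the 20 that leaves out 0, and its adjusted p was 0.101.

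Sex was examined in the same model, since circulating corticosteroids are known to differ between female and male mice. By edgeR's test 0 of the 10 genes were called, with 0 at an unadjusted p under 0.05, against 0.340% called and 10.4% at that p over all tested genes. The sexes failed to overlap for 0 of the 10 and for 2.08% of all tested genes. DESeq2, limma-voom and limma-voom with quality weights called 0 as well, each with 1 of the 10 at an unadjusted p under 0.05, while they called 1.25%, 0.333% and 1.63% of all tested genes. Females lay higher for 9 of the 10 genes, against 52.0% of all tested genes, with a median log2 fold change of 0.11 against 0.01. Without Epac1-PLN replicate 4, 6 of 10 lay higher, with a median of 0.05. Leaving it out moved Fkbp5 from 0.70 to 0.29, Mt1 from 0.22 to 0.10 and Nr3c2 from 0.10 to 0.21, and turned Mt2 from 0.13 to -0.27, Sgk1 from 0.11 to -0.016 and Klf15 from 0.10 to -0.0012. The largest difference was that of Zbtb16, at 54.0 to 126 CPM in 6 females (median 111) and 22.1 to 132 CPM in 4 males. Its log2 fold change of 1.18 ± 0.61 had an interval of -0.24 to 2.60 (adjusted p = 0.542, edgeR). Without Epac1-PLN replicate 5, the male with the highest level, it was 2.19 and the adjusted p 0.00421 (edgeR). That library is singled out by its own Zbtb16 level, so this p follows in part from the choice. With any other library left out, 0 members were called for sex. Nr3c1 was the 1 gene that lay lower in females, by -0.10 ± 0.09 (adjusted p = 0.716, edgeR).

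The genotype effect was not found to differ between the sexes for any of the 10 genes. The genotype-by-sex term called 0 of 10 members and 0% of all tested genes by edgeR, with 0 members and 3.75% of all genes at an unadjusted p under 0.05. DESeq2 called 0 members, with 1 at that p, and 1 gene in all. The smallest p among the members was again that of Zbtb16, 0.0636 (adjusted p = 0.993, edgeR), with a term of -2.05 ± 0.93 on the log2 scale. In males this gene was at 24.5 and 24.0 CPM in wildtype and at 22.1 and 132 CPM in Epac1-PLN libraries, so the term rests on 2 males per genotype.

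Whether members varied together between mice was examined with Pearson's r of log2(CPM + 0.5) over the 10 libraries. Of the 45 pairs 0 passed after Benjamini-Hochberg adjustment of permutation p-values, and 8 had an unadjusted p under 0.05. The 36 pairs without Zbtb16 had a positive r in 21 and a negative r in 15 (7 at an unadjusted p under 0.05). The closest pair was Mt1 and Sgk1, with r = 0.85 and Spearman's rho = 0.82 (2-sided permutation p = 0.00162 and 0.00600, adjusted 0.0729 and 0.146, n = 10). Without Epac1-PLN replicates 2 and 4, the libraries farthest from the Mt1 median, r was 0.66. Nr3c2 and Mt2 went in opposite directions, with r = -0.82 and rho = -0.62 (permutation p = 0.00493 and 0.0585, adjusted 0.0933 and 0.309), and r = -0.61 without wildtype replicate 4 and Epac1-PLN replicate 4.

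Fkbp5 and Mt1 had r = 0.77 and rho = 0.73 (permutation p = 0.00829 and 0.0203, adjusted 0.0933 and 0.279), and r = 0.59 without Epac1-PLN replicates 4 and 5. Fkbp5 and Klf15, Tsc22d3 and Klf15, and Fkbp5 and Tsc22d3 had r = 0.67, 0.67 and 0.66, and rho = 0.62, 0.71 and 0.54. The permutation p-values of r were 0.0317, 0.0360 and 0.0383, each adjusted to 0.234. Without Epac1-PLN replicates 4 and 5, r was 0.29, 0.43 and 0.20 for these pairs. The neighbours Mt1 and Mt2 had r = 0.64 and rho = 0.47 (permutation p = 0.0417 and 0.177, adjusted 0.234 and 0.497). That relation rests on Epac1-PLN replicates 2 and 4, without which r was -0.09. On residuals from sex and genotype, 3 pairs passed, with permutation p-values adjusted to 0.0103, 0.0121 and 0.0180. They were Nr3c2 and Mt2 (r = -0.93), Tsc22d3 and Klf15 (r = 0.91) and Mt1 and Sgk1 (r = 0.88). The residuals were permuted as if nothing had been fitted, so these p-values tend to be too small. These 3 pairs are given as a description. A genotype holds too few libraries for values of its own. No r over all libraries is given for the 9 pairs with Zbtb16, whose levels fell into separate ranges. One of them, with Fkbp5, was among the 8 pairs at an unadjusted p under 0.05 (permutation p = 0.00812, adjusted 0.0933). It passed without Epac1-PLN replicate 4 (permutation p adjusted to 0.00135), with the low libraries still in.

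**Figure D5:**
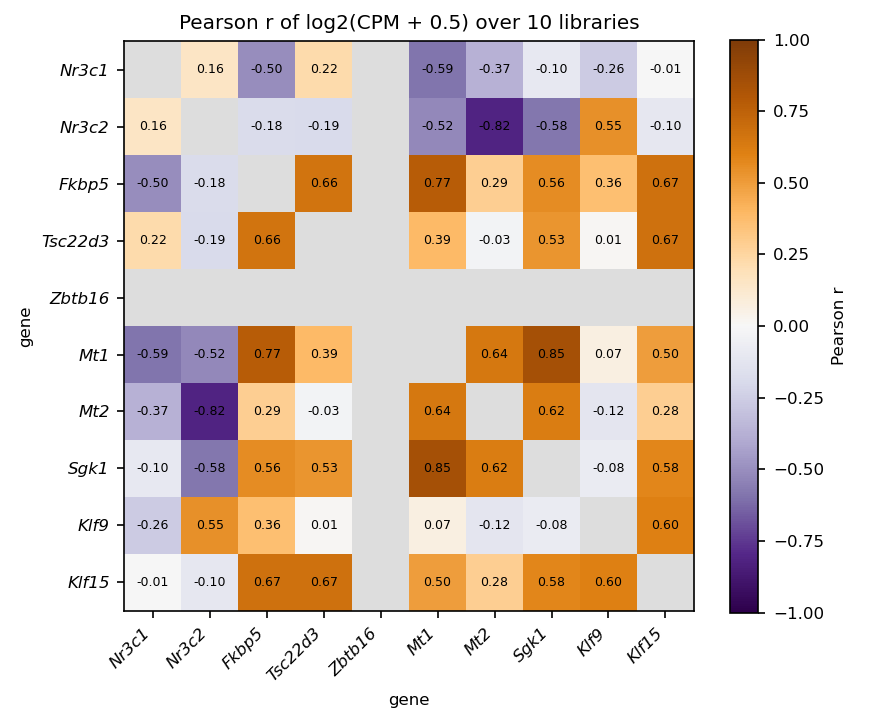
Pearson r between the levels of each pair of genes over the 10 libraries, from log2(CPM + 0.5); orange and purple mark opposite signs, and Zbtb16 and the diagonal are left grey. The strongest cells are Mt1 with Sgk1 (0.85) and Nr3c2 with Mt2 (-0.82).

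Genes with the most similar pattern over the 10 libraries were looked for among the 12085 other tested genes with a mean of at least 1 CPM. The likeness is Pearson's r of log2(CPM + 0.5), given as a description. The closest gene is the highest of 12085 values over only 10 libraries, and its r was at least 0.91 for every member. How many genes of a given list would be among the closest by chance was not worked out. Klf15 was closest to Sesn1 (r = 0.91), which is on the list of other glucocorticoid-induced genes used further on, and then to Dtna (0.89). Fkbp5 was closest to Lrrc8a (0.95) and Ints3 (0.95), Tsc22d3 to Wbp1l (0.96) and Zfyve9 (0.95), and Nr3c2 to Atf1 (0.96) and Zzz3 (0.94). Nr3c1 was closest to Orc2 (0.92) and Socs6 (0.90), Mt1 to Slc12a4 (0.96) and Morc2a (0.96), and Mt2 to Esyt1 (0.97) and Gusb (0.96). For Sgk1 these were Snx25 (0.96) and Thy1 (0.94), and for Klf9 0610030E20Rik (0.94) and Ccny (0.92). Those of Zbtb16, Prrc2c and Trio, are given without r because of its separate ranges. For no member was another member among its 2 closest genes, out of the 12085 candidates.

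The wider pathway was followed in 11 further lists, and edgeR called 0 of their 126 tested genes for genotype. DESeq2 called 8 of the 126 (6.35%, against 2.10% of all tested genes), Stip1, Hsp90aa1, Rhob, Kcnip2, Cry2, Nfil3, Bhlhe41 and Fosb. The voom fit without weights called 0, and with weights it called 5 (3.97%, against 2.17% of all tested genes), Stip1, Hsp90aa1, Rhob, Kcnip2 and Bhlhe41. Among genes that supply or remove steroids and related receptors, 6 of 10 were tested. Hsd11b1, whose enzyme regenerates active glucocorticoid inside cells, was lower in females. The 4 males held 8.91 to 13.3 CPM and the 6 females 2.50 to 3.73 CPM, without overlap. On the log2 scale the difference was -1.78 ± 0.15 (edgeR, adjusted p = 6.99e-05). The fibroblast marker Dcn was also lower in females (123 ± 14.1 against 196 ± 26.0 CPM, adjusted p = 0.00967, edgeR). Of the 9 fibroblast markers 7 lay lower in females. EdgeR and voom called Dcn alone among them, and Gsn was called as well by DESeq2, by voom with weights and by edgeR without Epac1-PLN replicate 4. Over the list the summed level was 548 to 752 CPM in females and 643 to 877 CPM in males. Endothelial markers also lay lower in females for 9 of 9 and macrophage and leukocyte markers for 8 of 10, with 0 called by edgeR and 1 of each list at an unadjusted p under 0.05. Without Epac1-PLN replicate 4, 7 of these endothelial and 5 of these macrophage and leukocyte markers had that p, again with 0 called (edgeR). By limma-voom with quality weights over all libraries, 4 and 6 had it, with 0 called. The part of these cell types in the Hsd11b1 difference was not tested. Hsd11b2 was at 0.143 CPM or less in every library.

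Among the chaperones that hold the receptors, 12 of 15 lay higher in Epac1-PLN cells (median log2 fold change 0.11), 0 were called by edgeR, and 5 had an unadjusted p under 0.05. Stip1, the adaptor that hands the receptor from Hsp70 to Hsp90, was at 147 ± 9.52 CPM in wildtype and 194 ± 25.0 CPM in Epac1-PLN cells (adjusted p = 0.0574, edgeR). Hsp90aa1, an inducible Hsp90, was at 41.2 ± 10.7 against 64.5 ± 15.9 CPM (adjusted p = 0.186, edgeR), and Ahsa1, an activator of Hsp90, had a log2 fold change of 0.28 ± 0.08. Among 13 receptor coregulators 10 lay higher with genotype (median 0.08) and 12 higher in females (median 0.16), with 0 called in either comparison and 1 and 6 at an unadjusted p under 0.05. The acetyltransferase gene Crebbp had the smallest p for sex, at 26.2 ± 1.91 CPM in females and 19.2 ± 3.48 CPM in males (adjusted p = 0.137, edgeR).

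Of 30 other glucocorticoid-induced genes 27 were tested, 16 lay higher and 11 lower in Epac1-PLN cells (median 0.03), and 0 were called by edgeR, with 5 at an unadjusted p under 0.05. Without Epac1-PLN replicate 4, 9 of the 27 lay higher. Rhob, a small GTPase gene, was at 212 to 251 CPM in wildtype and 168 to 208 CPM in Epac1-PLN libraries, without overlap (log2 fold change -0.29 ± 0.07, adjusted p = 0.0626, edgeR). The cell cycle inhibitor gene Cdkn1a was at 12.4 ± 4.46 against 20.5 ± 12.2 CPM, with 41.4 CPM in Epac1-PLN replicate 4 (adjusted p = 0.282, edgeR). Angptl4, an inhibitor of lipoprotein lipase, was at 4.46 ± 1.05 against 3.06 ± 0.666 CPM (adjusted p = 0.284, edgeR). Ddit4, which restrains mTOR, had the smallest p for sex in this list, at 34.1 ± 8.37 CPM in females and 16.5 ± 3.99 CPM in males (adjusted p = 0.0925, edgeR). For sex 19 of the 27 lay higher in females, and 12 without Epac1-PLN replicate 4. DESeq2 called Ddit4, Cdkn1a and Foxo3 for sex in this list and Crebbp among the coregulators, and voom with weights called Ddit4 and Crebbp.

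Single libraries stood at the ends of these lists. Epac1-PLN replicate 4 held the highest level of 5 of the 10 members (Fkbp5, Mt1, Mt2, Sgk1 and Klf15) and of 8 of the 27 other induced genes, against 19.3% of all tested genes. Epac1-PLN replicate 1 held the lowest level of 3 members and of 9 of the 27, against 8.62% of all tested genes. Epac1-PLN replicate 2 held the lowest level of 4 members and of 3 of the 27, against 8.61% of all tested genes. This count was looked at after the levels had been seen. Endothelial and smooth muscle and pericyte marker sums, given above, were also highest in Epac1-PLN replicate 4, while fibroblast and erythroid sums were not. The part of these cell types was not tested.

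The remaining lists held 0 called genes for genotype or sex by edgeR. For sex, among the clock and isolation stress genes, DESeq2 called Dbp and Fos, voom with weights Npas2, and voom without weights 0. Of 11 genes linked to the mineralocorticoid receptor 9 were tested and 7 lay higher in Epac1-PLN cells (median 0.16, 3 at an unadjusted p under 0.05). Wnk1, a kinase of salt transport, was at 736 ± 93.9 against 887 ± 89.0 CPM (adjusted p = 0.198, edgeR). The epithelial sodium channel genes Scnn1b and Scnn1g did not pass the filter, and Scnn1g had 0 counts in every library. The 5 tested genes of the Sgk family and its activating kinases had a median of 0.08, with 4 higher and 0 at an unadjusted p under 0.05.

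Of 7 metal-response genes 6 were tested, with 4 higher (median 0.17) and 1 at an unadjusted p under 0.05. That gene, Mtf1, was at 25.0 ± 3.70 CPM in wildtype and 28.4 ± 2.58 CPM in Epac1-PLN cells (adjusted p = 0.374, edgeR). Of 15 other Krüppel-like factors 10 were tested, with 7 higher (median 0.07; 4 without Epac1-PLN replicate 4) and 1 at an unadjusted p under 0.05, Klf4 (0.27 ± 0.12). Of the 6 cardiac genes linked to Klf15, 4 lay lower (median -0.10) and 3 had an unadjusted p under 0.05. One of these was Kcnip2, whose protein modulates a potassium channel of early repolarization, and it was at 381 ± 40.7 CPM in wildtype and 303 ± 19.2 CPM in Epac1-PLN cells, with an adjusted p of 0.0515 (edgeR).

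Clock genes and isolation stress genes were set beside the members because several members follow the time of day and handling. Of 16 clock genes 8 lay higher and 8 lower in Epac1-PLN cells (median -0.01), with 6 at an unadjusted p under 0.05. The smallest p was that of Bhlhe41, at 38.2 ± 6.43 against 28.5 ± 4.95 CPM (adjusted p = 0.0960, edgeR), followed by Cry2 (0.43 ± 0.11) and Nfil3 (0.70 ± 0.20). Of 13 isolation stress genes 10 lay higher with genotype (median 0.17) and all 13 higher in females (median 0.31), with 1 and 2 at an unadjusted p under 0.05 (edgeR). Over all tested genes 12.2% and 10.4% had that p. For sex it was reached by 3 of the 13 in DESeq2, 6 in limma-voom and 8 in limma-voom with quality weights. Fosb, an immediate early gene, was at 8.34 ± 2.38 CPM in wildtype and 17.2 ± 5.85 CPM in Epac1-PLN cells (adjusted p = 0.131, edgeR). The part of collection time or handling in the levels of the members was not tested.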

How the data were processed

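One table holds read counts, which the authors deposited without normalization, by Ensembl gene; another holds a deposited signal that equals each count divided by 1 size factor per library. Alignment and counting tools named in the submitters' processing notes are STAR 2.3.0 and HTSeq 0.5.4, on mm10, with DESeq and DESeq2 also listed; how they were run, on which annotation and whether by strand is not stated in the sources used here. Rows without a symbol (470) were kept in the fit.

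Genes were kept by filterByExpr on genotype, scaled by TMM and tested with edgeR 4.0.16 (R 4.3.3; quasi-likelihood F test, robust, sex and genotype in the model), with Benjamini-Hochberg adjustment over all 12629 tested genes at 0.05, and genes past it are named as called. CPM use TMM-scaled totals, given as mean ± SD. A log2 fold change stands with its standard error, its absolute value over the square root of the F statistic; intervals are 95%. Correlations used log2(CPM + 0.5) and 100000 permutations. Alternatives used DESeq2 1.42.0, limma 3.58.1, other scalings, filters and covariates, and each library left out. The fit was also run on simulated counts with known genotype changes. These held no sex effect and no outlying library, so that run does not bear on either.

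Libraries came from individual mice, per the labels, and within groups all pairs differed by more than sampling noise (chi-square per degree of freedom at least 7.55). Totals of 10632224 to 20983754 counts gave each member at least 90 counts per library. Same-numbered libraries were not treated as pairs (correlation of deviations -0.30 to 0.38, over 0.1 in 2 of 5 pairs). The members and lists were chosen with earlier results of these data known. The text names all members and, for likeness, the 2 closest genes of each. Genes of other lists were taken from those called or among the 3 smallest p for genotype or 2 for sex; not all of these are named. Hsd11b2, Scnn1b, Scnn1g, Lep, Dcn and Gsn, and genes called only by another tool, were named after their values were seen.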

Additional observations from a re-analysis of the deposited data

How the results depend on the processing

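Over the 20 log2 fold changes of the members (10 for genotype, 10 for sex), 369 of 400 alternatives kept the direction and the side of the threshold, 22 turned the direction and 9 passed the threshold, and 10 of the 20 never turned. For genotype, 0 members were called, against 1 by DESeq2, 1 by voom with weights, 3 with no count filter (Fkbp5, Tsc22d3 and Zbtb16) and 0 to 1 with 1 library left out. Genes called for genotype numbered 81 in all, against 265 by DESeq2, 274 by voom with weights, 498 with no count filter, 37 with no sex term, 4 in females alone and 14 to 103 with 1 library left out. For sex, 0 members were called, against 2 with no count filter and 0 to 1 with 1 library left out. Genes called for sex numbered 43, against 158 by DESeq2, 206 by voom with weights, 521 with no count filter and 18 to 93 with 1 library left out. The genotype-by-sex term called 0 members and 0 genes, against 1 member (Zbtb16) and 164 genes with no count filter, 1 gene by DESeq2 and 0 to 6 genes with 1 library left out. The fit with no count filter gave far smaller adjusted p-values at nearly the same log2 fold changes. For Zbtb16 by sex it gave 4.04e-30 against 0.542, and for Fkbp5 by genotype 4.97e-10 against 0.597 (edgeR). The groups of both genes overlap, so calls from that fit carry little weight. Its 3 member calls for genotype and 2 for sex are among the 9 that passed the threshold. The count of correlated pairs, 0, was 1 without the 2 farthest libraries (Fkbp5 and Zbtb16) and 3 on residuals, where the p-values tend to be too small. It was 0 to 1 with 1 library left out (Fkbp5 and Zbtb16 without Epac1-PLN replicate 4, Mt1 and Sgk1 without wildtype replicate 5). With the replicate number as a block, which the correlations of same-numbered libraries do not bear out as a pairing, 2 genes were called for genotype and 3 for sex, with 0 members in either. Under that block Mt2 turned to -0.042 for genotype, and for sex Tsc22d3 turned to -0.14, Mt1 to -0.016, Mt2 to -0.27, Sgk1 to -0.45, Klf9 to -0.017 and Klf15 to -0.23. By voom Mt2 turned to -0.069 for genotype, and with weights to -0.30, with Mt1 at -0.018 and, for sex, Mt2 at -0.025. Zbtb16 turned to -0.37 in females alone, and r of Mt1 and Mt2 to -0.092 without the 2 farthest libraries. With 1 library left out, genotype values spanned -0.38 to 0.28 for Mt2, -0.041 to 0.20 for Mt1, -0.026 to 0.18 for Klf15 and -0.31 to 0.69 for Zbtb16, and sex values spanned -0.0054 to 0.16 for Tsc22d3, -0.27 to 0.26 for Mt2, -0.016 to 0.24 for Sgk1 and -0.0012 to 0.18 for Klf15. The causes were not tested. With 5 mice per genotype and 2 males in each, the intervals of Fkbp5, Zbtb16 and Mt2 reach past 0.9 on the log2 scale, so differences of that size are not excluded for them.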
